A study of Homo sapiens and Mus musculus with 69 samples.

Results

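*NUPR1* and 8 genes of the integrated stress response were followed through every group of a bulk RNA-Seq series on small cell lung cancer (SCLC) lines. The 9 genes were *NUPR1*, *ATF4*, *DDIT3*, *TRIB3*, *CHAC1*, *ASNS*, *SESN2*, *DDIT4* and *CEBPB*, out of 20516 genes in the human table, and their orthologs out of 18501 genes in the table of the mouse line KP1. All 9 were found in both tables, and all 9 passed the filter on low values in every line. *NUPR1* was chosen by its measured values, being among the genes raised most by the Notch1 intracellular domain (N1ICD) in H82 cells, so the H82 difference between doxycycline and no doxycycline is given for all 9 genes as a description, without a test. *NUPR1* was likewise not tested in any other comparison that uses those H82 libraries. All 9 genes, and the gene lists used further below, were chosen with earlier results of these data known. Counts of them beside the share of all genes are therefore descriptions in every line.

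The integrated stress response is the program by which a cell answers amino acid shortage, endoplasmic reticulum (ER) stress, heme deficiency or double-stranded RNA. Kinases for each of these stresses phosphorylate the initiation factor eIF2α, general translation falls, and translation of the *ATF4* mRNA rises, so that *ATF4* activity is set largely by translation and its mRNA can understate it. ATF4 then pairs with C/EBP-family partners on composite DNA elements of its target genes.

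The series held 69 libraries in 23 groups of 3 libraries. The SCLC lines H82 and H524 (both of the NEUROD1 type) and H69 were sequenced as parental cells and as cells with a doxycycline-inducible lentiviral vector, without (no dox) and with doxycycline (dox). The vector carried human N1ICD in all 3 lines, in labels written NOTCH1, and *REST* in a second set of H524 cells. H82 N1ICD cells were also sequenced, without and with doxycycline, as *REST* KO and as STING KO, both made with CRISPR-Cas9. COR-L88, also an SCLC line, was treated with DMSO, with TAS1440 (a reversible LSD1 inhibitor), or with TAS1440 and a γ-secretase inhibitor (GSI), which blocks Notch cleavage. STING KO COR-L88 cells received DMSO or TAS1440. The study's immunoblots show single-cell clones of the KO cells, and the labels do not say whether such clones were sequenced. Differences between clones and loss of the gene therefore cannot be told apart where KO and intact cells are compared. KP1, a mouse SCLC line with mutations of *Rb1* and *Trp53*, received DMSO, TAS1440, or TAS1440 with GSI. According to the study's methods, only the adherent cells were collected from the cultures that overexpressed N1ICD or *REST*, after a long time in culture. Induction and selection for attachment therefore cannot be told apart in those comparisons. No parental cells were labelled as treated with doxycycline, so N1ICD and doxycycline itself cannot be told apart in H82 and H69. In H524 the *REST* vector cells also received doxycycline. The labels do not say that the 3 libraries of a group came from separate cultures, and *P* values then measure only the spread between these libraries.

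Values are log2(RPKM + 1), means are given with SD and n = 3 libraries, and differences (log2FC) are differences of mean log2(RPKM + 1), which understate the change of genes near 0. The 2 tables were normalized separately, so levels were not compared between KP1 and the human lines. A gene was said to rise or fall at an adjusted *P* under 0.05 (limma, moderated variances, Benjamini-Hochberg over all genes tested in the comparison). In bulk RNA, fewer cells of a type and less RNA per cell cannot be told apart.

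The induced genes and cell type markers were checked first. *NOTCH1* RNA, which includes the vector's, was 1.16 ± 0.29 in H82 without and 4.86 ± 0.66 with doxycycline, 1.20 ± 0.38 and 8.06 ± 0.42 in H524, and 0.39 ± 0.01 and 7.99 ± 0.08 in H69. In parental cells it was 0.02 ± 0.02 in H82, 0.40 ± 0.29 in H524 and 0.60 ± 0.02 in H69, so uninduced N1ICD cells were above parental ones in H82 and H524. *REST* in H524 cells with the *REST* vector was 4.99 ± 0.08 without and 9.01 ± 1.96 with doxycycline. *REST* RNA in H82 *REST* KO cells was 4.11 ± 0.11 without and 5.26 ± 0.54 with doxycycline, against 4.64 ± 0.19 and 6.31 ± 0.18 in intact cells. *TMEM173* RNA, which encodes STING, was 1.61 ± 0.39 in doxycycline-treated H82 cells labelled STING KO and 1.11 ± 0.05 in intact ones, so the RNA does not show the label, as it need not for an edit that leaves the transcript. In COR-L88 with TAS1440 it was 1.07 ± 0.10 with the STING KO label and 2.20 ± 0.29 in intact cells. Summed over 8 neuroendocrine markers, RPKM was 9029 to 22374 in uninduced and 258 to 451 in induced H82 N1ICD cells, 12331 to 25744 and 834 to 1750 in H524, and 1246 to 2354 and 133 to 138 in H69. Summed over the 7 measured of 8 markers of fibroblasts, endothelium and leukocytes, RPKM was 1.01 to 12.2 and 121 to 215 in H82, 0.696 to 2.57 and 148 to 172 in H524, and 1.23 to 1.67 and 2130 to 2314 in H69. Fibroblast markers of this list were higher in the induced cells. *COL1A1* was 2.41 in uninduced and 6.79 in induced intact H82 cells, 0.87 and 5.29 in H524, and 0.91 and 11.01 in H69, as mean log2(RPKM + 1), and *PDGFRB* was 0.93 and 5.80, 0.58 and 6.87, and 0.11 and 6.21. *CDH5* (endothelium) was listed at 0 in all induced intact H82 and H69 libraries and *CD3E* (T cells) in all induced intact H82 and H524 libraries. *CDH5* in induced H524 and *CD3E* in induced H69 cells were not at 0 in all libraries. *PTPRC* (leukocytes) was at 0 in all uninduced intact H82 and H524 N1ICD libraries but not in all induced ones. In induced H82 *REST* KO cells the sum was 404 to 617 with none of the 7 markers at 0 in all 3 libraries, and in induced H82 STING KO cells it was 208 to 240 with *CD3E* alone at 0 in all 3. Summed neuroendocrine markers were 1615 to 1847 with DMSO, 587 to 712 with TAS1440 and 1165 to 1268 with GSI added in COR-L88, and 630 to 670, 6.08 to 79.0 and 519 to 656 in KP1. Summed over 8 non-neuroendocrine markers, RPKM was 38.4 to 46.6, 367 to 460 and 302 to 343 in the same COR-L88 groups and 1.28 to 2.91, 1927 to 2670 and 4.96 to 23.9 in KP1. The part of these markers in the results below was not tested. Over all genes tested, the most similar library was in the same group for 20 of 21 H82, 14 of 15 COR-L88, 12 of 15 H524, 9 of 9 H69 and 9 of 9 KP1 libraries. The exceptions were uninduced H82 N1ICD library 4, COR-L88 STING KO TAS1440 library 44 and the parental H524 libraries 19, 20 and 21.

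Of the 8 genes of the set with a promoter entry, 2 had the composite C/EBP-ATF element in its core form within the window searched. These 2 promoters are shown. Sites outside the windows and other forms of the element were not searched. Their genes, *CHAC1* and *ASNS*, both rose with N1ICD in H524, while in H69 their directions against uninduced cells differed. Each line is the RefSeq window of 300 bases around a start site, with the match to TGATGNAA, on either strand, in capitals.
CHAC1, chr15:40953221-40953520, GRCh38.p14, plus strand: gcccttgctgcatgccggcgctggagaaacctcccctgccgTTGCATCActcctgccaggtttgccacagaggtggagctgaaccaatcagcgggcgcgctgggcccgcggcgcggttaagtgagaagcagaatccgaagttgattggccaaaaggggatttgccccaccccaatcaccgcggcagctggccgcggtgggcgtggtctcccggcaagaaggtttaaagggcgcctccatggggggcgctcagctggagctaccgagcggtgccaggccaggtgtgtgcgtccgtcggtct
ASNS, chr7:97872359-97872658, GRCh38.p14, minus strand: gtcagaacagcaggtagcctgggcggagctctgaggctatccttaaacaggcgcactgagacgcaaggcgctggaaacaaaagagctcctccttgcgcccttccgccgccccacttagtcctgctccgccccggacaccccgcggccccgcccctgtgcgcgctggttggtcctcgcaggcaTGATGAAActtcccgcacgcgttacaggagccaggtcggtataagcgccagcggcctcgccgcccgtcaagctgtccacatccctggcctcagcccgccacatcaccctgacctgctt
The *CHAC1* match reads on the opposite strand and begins 209 bases before the start site, and the *ASNS* match begins 68 bases before it. TGATGNAA was present in 3.62% of 35116 promoter windows of the same length. Of the 8 genes with an entry, the windows of *ATF4*, *DDIT3*, *TRIB3*, *SESN2*, *DDIT4* and *CEBPB* did not contain these letters. CCAAT, read on both strands, was present in 34.61% of windows and in those of *CEBPB*, *CHAC1*, *DDIT3*, *DDIT4* and *SESN2*. *NUPR1* had no entry.

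*NUPR1* (chr16:28544029-28550329, GRCh37, minus strand) encodes a small chromatin-associated stress protein and had the widest range of the 9 genes, with group means from 0.12 to 10.0. In H82 its values were 4.25, 0.82 and 1.20 in parental cells, 0.35, 0.00 and 0.00 in uninduced N1ICD cells, where 2 of 3 libraries list it at 0, and 9.45, 9.42 and 9.05 with doxycycline. The induced libraries lay above all others of these groups, and 1 parental library stood above the other two. In H82 *REST* KO cells the values were 0.63, 0.00 and 0.00 without and 8.71, 8.73 and 5.60 with doxycycline. *NUPR1* rose in these libraries, which did not choose it (log2FC 7.47, SE 0.79, adjusted *P* = 3.2e-07), with library 33 lower than the other induced ones. In H82 cells labelled STING KO the values were 2.71, 1.65 and 1.42 without and 9.62, 7.93 and 9.19 with doxycycline, and *NUPR1* rose there too (log2FC 6.99, SE 0.79, adjusted *P* = 1.44e-06).

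*NUPR1* also rose with N1ICD in the other lines. In H524 it was 0.72, 2.89 and 0.30 in uninduced and 9.56, 10.00 and 10.43 in induced cells (log2FC 8.69, SE 0.62, adjusted *P* = 1.31e-07). The highest values of the series, 10.43 and 10.00, were both in induced H524 libraries. In H69 it was 2.90, 2.27 and 2.54 without and 7.49, 7.33 and 7.45 with doxycycline (log2FC 4.86, SE 0.26, adjusted *P* = 2.64e-07). Induced and uninduced libraries did not overlap in any of these 5 comparisons with N1ICD, and the 4 tested increases stayed past the threshold without any 1 library. With *REST* in place of N1ICD, *NUPR1* in H524 was 4.43, 3.86 and 4.20 without and 6.17, 6.08 and 7.30 with doxycycline. These groups did not overlap but the difference missed the threshold (log2FC 2.35, SE 0.62, adjusted *P* = 0.0628). It passed when quantile-normalized values (adjusted *P* = 0.0492) or only the 2 groups compared (adjusted *P* = 0.0239) were used. The response to N1ICD exceeded that to *REST* by 6.34 on the log2 scale (SE 0.88, adjusted *P* = 0.000165).

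*NUPR1* was lower in uninduced N1ICD than in parental cells in both H524 and H69. Parental H524 libraries had 4.80, 5.91 and 3.80 and parental H69 libraries 5.24, 5.98 and 6.31, above all uninduced N1ICD libraries of the same line. The difference was tested in H524 (log2FC -3.53, SE 0.62, adjusted *P* = 0.00155) and in H69 (log2FC -3.27, SE 0.26, adjusted *P* = 5.28e-05), and the H524 call was lost when only the 2 groups were fitted (adjusted *P* = 0.0617). In uninduced *REST* vector H524 cells the difference from parental cells was -0.68 (SE 0.62, adjusted *P* = 0.822). Against parental libraries, a comparison chosen after the data were seen, *NUPR1* was 7.22 higher in induced H82 N1ICD cells, without a test. With N1ICD it rose by 5.16 in H524 and by 1.58 in H69, in place of 8.69 and 4.86 against uninduced cells. With *REST* in H524 the difference from parental cells was 1.68 and missed the threshold.

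**Figure D1:**
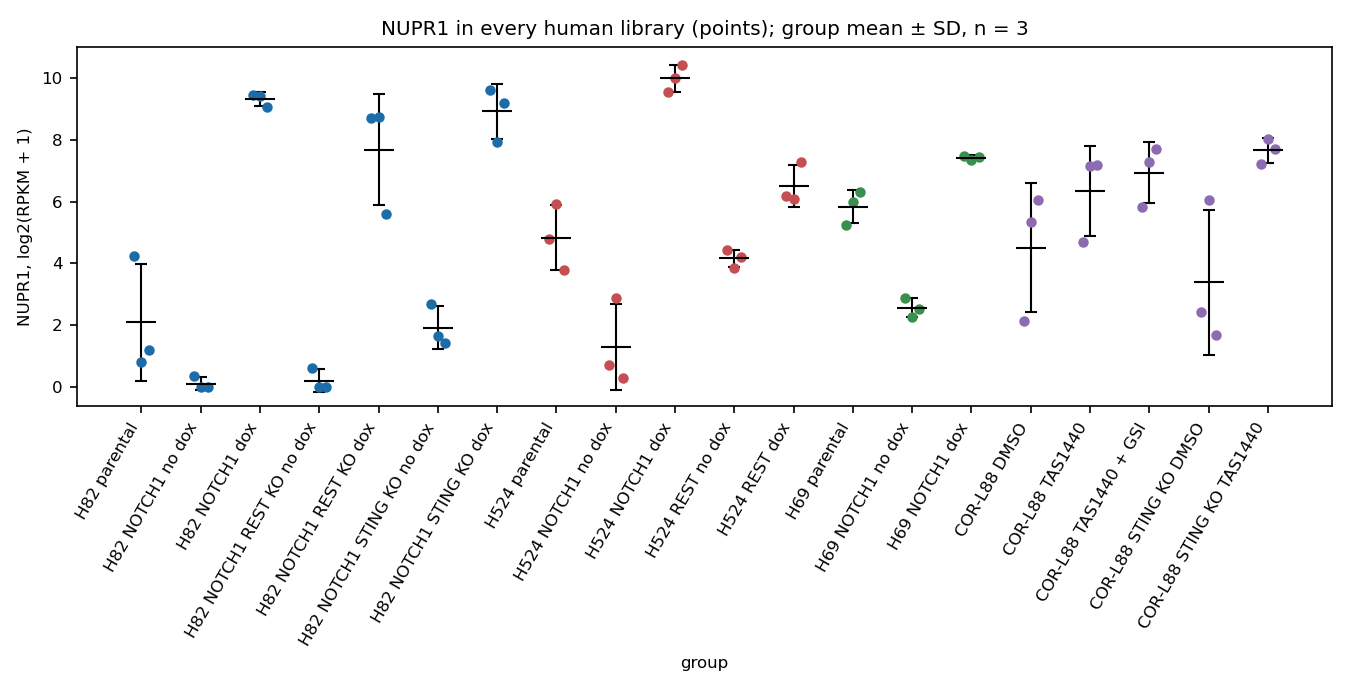
*NUPR1* as log2(RPKM + 1) in each of the 60 human libraries, with points for libraries and bars for the group mean ± SD, n = 3. Induced N1ICD libraries sit between 5.60 and 10.43, and uninduced N1ICD libraries of the same lines between 0 and 2.90.

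With TAS1440 the pattern was less uniform. COR-L88 values were 2.14, 5.34 and 6.07 with DMSO, 4.68, 7.17 and 7.20 with TAS1440 and 5.83, 7.27 and 7.71 with TAS1440 and GSI. The groups overlapped and none of the differences between them passed the threshold, the difference of TAS1440 from DMSO being 1.83 (SE 1.15, adjusted *P* = 0.188). In cells labelled STING KO the values were 2.44, 6.07 and 1.67 with DMSO and 7.22, 8.04 and 7.71 with TAS1440, and *NUPR1* rose (log2FC 4.26, SE 1.15, adjusted *P* = 0.00846). The responses of the STING KO and intact cells did not pass a test of their difference (log2FC 2.43, SE 1.62, adjusted *P* = 0.379). In KP1, *Nupr1* was 7.51, 7.62 and 6.01 with DMSO, 6.24, 5.57 and 4.19 with TAS1440 and 5.40, 4.71 and 6.71 with TAS1440 and GSI. The direction with TAS1440 was opposite to that in COR-L88, and the difference missed the threshold (log2FC -1.71, SE 0.67, adjusted *P* = 0.0733), but it passed without DMSO library 3 (adjusted *P* = 0.0394) or without TAS1440 library 4 (adjusted *P* = 0.0488).

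Ordered by mean, the 20 human groups ran from induced H524 N1ICD (10.00 ± 0.44) and induced H82 N1ICD cells (9.31 ± 0.22) at the top to uninduced H82 *REST* KO (0.21 ± 0.37) and intact cells (0.12 ± 0.20) at the bottom. Of 19 neighboring pairs in this order, 18 had overlapping ranges. The exception was the top pair. Across the 20 group means, 13962 genes with a mean of at least 2 in some group were ranked by their Pearson correlation with *NUPR1*. The 5 closest were *C5orf56* (r = 0.903), *EGR1* (r = 0.894), *FBLIM1* (r = 0.874), *UBA7* (r = 0.873) and *APOL6* (r = 0.864). Among the other 8 genes of the set, *SESN2* was closest (r = 0.789, rank 38), then *CEBPB* (r = 0.779, rank 50) and *TRIB3* (r = 0.726, rank 134), and *DDIT4* was farthest (r = -0.16, rank 9252). The points share cell lines and a common normalization, so these coefficients are descriptions.

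*ATF4* (chr22:39915700-39918688, plus strand), the transcription factor at the center of the response, had group means from 5.74 to 7.88, and its coordinates and those of the genes that follow are also GRCh37. *CEBPB* (chr20:48807367-48809205, plus strand) and *DDIT3* (chr12:57910371-57915520, minus strand) encode bZIP factors that pair with ATF4 or with each other, and *DDIT3* encodes CHOP, linked to cell death under lasting stress. The *DDIT3* locus overlaps *MARS1*, the methionyl-tRNA synthetase gene, on the opposite strand. In induced H82 N1ICD cells *ATF4* was 7.71, 8.21 and 7.58 against 6.39, 7.27 and 7.04 uninduced, *DDIT3* 8.14, 7.68 and 7.95 against 5.44, 6.56 and 6.81, and *CEBPB* 6.70, 6.47 and 6.84 against 5.19, 4.95 and 5.07. For all 3 the induced libraries lay above the uninduced ones.

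The effector genes of the set cover separate tasks. *TRIB3* (chr20:343479-378203, plus strand) encodes a pseudokinase that dampens ATF4 and AKT signaling, *CHAC1* (chr15:41245160-41248710, plus strand) an enzyme that degrades glutathione, and *ASNS* (chr7:97480989-97501854, minus strand) asparagine synthetase. *SESN2* (chr1:28586029-28609002, plus strand), a leucine sensor, and *DDIT4* (chr10:74033678-74035794, plus strand) encode inhibitors of mTORC1. In H82, *SESN2* was 2.42, 2.69 and 2.75 without and 6.37, 5.79 and 6.20 with doxycycline, and *TRIB3* was 2.38, 1.75 and 1.82 and 4.91, 4.30 and 4.74. *CHAC1* went from 1.27, 0.97 and 1.12 to 4.16, 3.94 and 4.10 and *ASNS* from 4.79, 5.95 and 5.17 to 6.89, 7.77 and 6.73. *DDIT4* was the exception, since its values overlapped, at 3.38, 7.72 and 6.35 and 6.45, 6.13 and 6.07. The low uninduced value was library 4, without which the mean difference of *DDIT4* changed from 0.40 to -0.82. Thus 8 of 9 genes lay higher without overlap, where 27.1% of all genes tested did, a count the choice of genes partly fixed. The median of the 9 differences was 1.83 and that of all genes -0.0026.

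Parental H82 cells spread widely for these genes, and library 1 was the high one. *CHAC1* was 5.68, 2.43 and 1.90, *DDIT4* 9.91, 5.86 and 3.37, *SESN2* 5.64, 3.19 and 2.60 and *ASNS* 8.06, 6.18 and 5.97 in the parental libraries. Against the parental libraries, 5 of the 9 genes lay above without overlap in induced H82 cells, where 28.4% of all genes did. Of the 8 genes other than *NUPR1*, only *CHAC1* differed between uninduced N1ICD and parental cells (log2FC -2.22, SE 0.72, adjusted *P* = 0.0481), where 6.13% of 13903 genes fell. Without parental library 1 that difference was -1.05 (adjusted *P* = 0.203), and the call was also lost without uninduced libraries 4, 5 or 6 (adjusted *P* = 0.05 to 0.144).

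**Figure D2:**
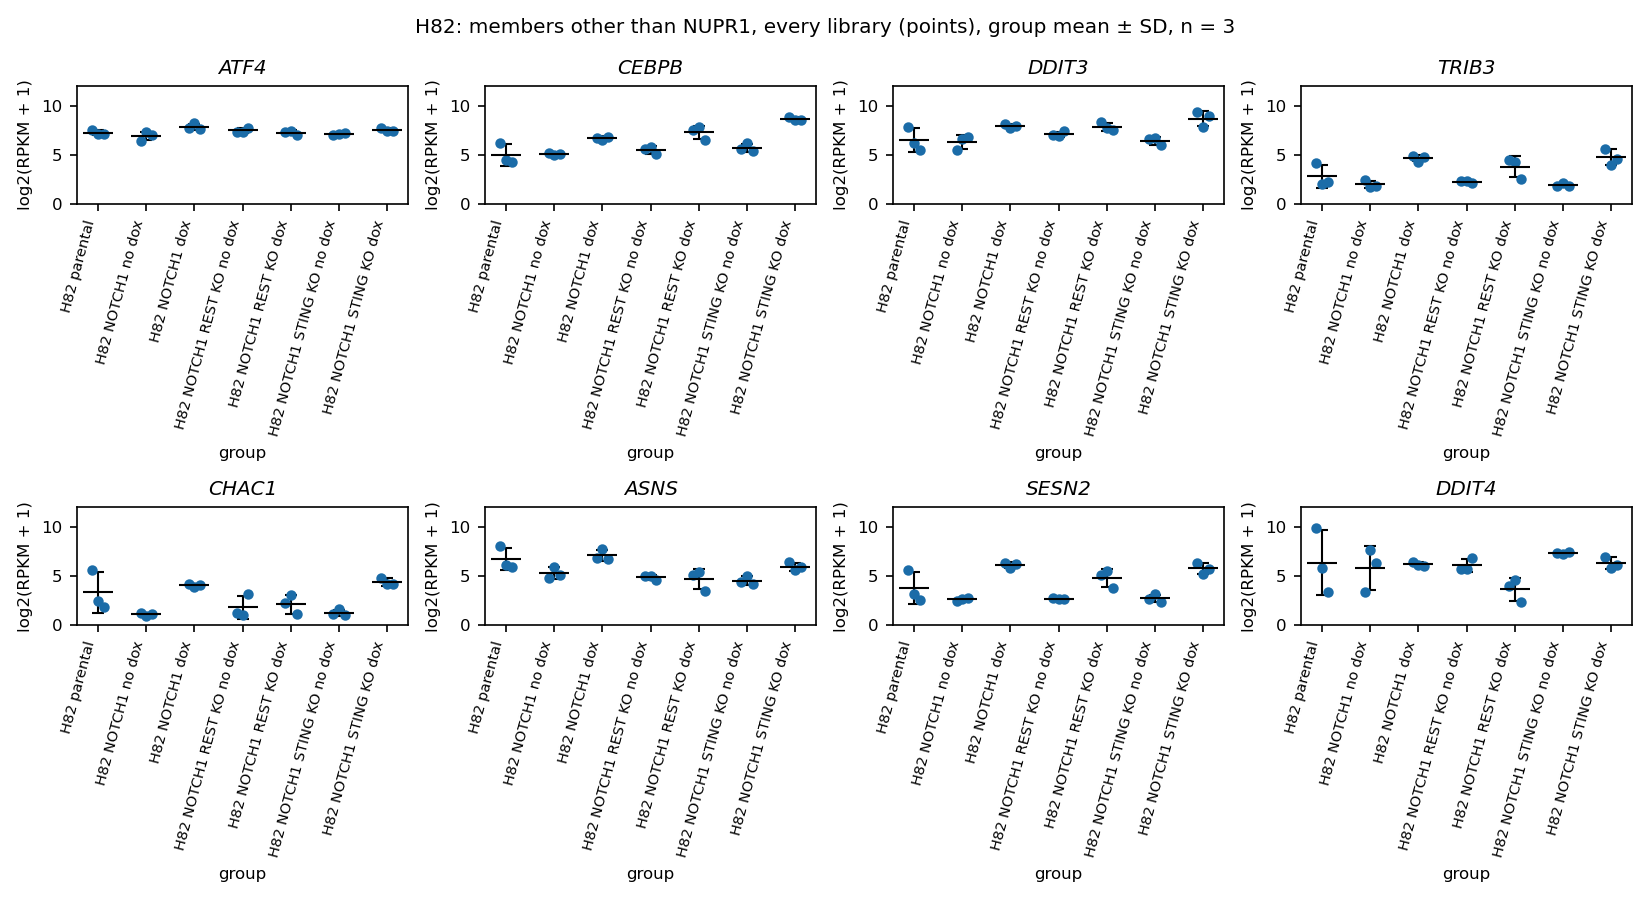
The 8 genes other than *NUPR1* in the 7 H82 groups, as log2(RPKM + 1), with points for libraries and bars for the mean ± SD, n = 3. Parental cells show the widest spread for *DDIT4*, from 3.37 to 9.91, and *SESN2* separates induced from uninduced cells in all 3 backgrounds.

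In H82 cells labelled STING KO, 7 of 9 genes rose with doxycycline and none fell, where 20.8% of all genes rose and 16.9% fell. The median of the 9 differences was 2.80 and that of all genes 0.01. Besides *NUPR1*, *CHAC1* rose by 3.14 (adjusted *P* = 0.00207), *SESN2* by 3.06 (adjusted *P* = 0.000284), *CEBPB* by 2.94 (adjusted *P* = 1.25e-05), *TRIB3* by 2.80 (adjusted *P* = 0.000318) and *DDIT3* by 2.30 (adjusted *P* = 0.00123). *ASNS* rose by 1.42 (adjusted *P* = 0.0392), a call lost without the filter on low values (adjusted *P* = 0.07) and without libraries 55, 57, 58 or 60 (adjusted *P* = 0.0747 to 0.135). *ATF4* (0.43, adjusted *P* = 0.137) and *DDIT4* (-1.07, adjusted *P* = 0.499) missed the threshold. *CEBPB*, at 8.88, 8.54 and 8.55, was the single one of 8 genes that differed from induced intact cells (log2FC 1.98, SE 0.40, adjusted *P* = 0.000899), where 16.0% of genes were higher and 23.2% lower. None of the 8 genes passed in limma between the 2 backgrounds without doxycycline (0 at an unadjusted *P* under 0.05), where 34.6% of all genes did. None passed for the difference between the 2 responses either (1 at an unadjusted *P* under 0.05), where 9.26% did.

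In H82 *REST* KO cells the stress genes split. *SESN2* rose by 2.12 (adjusted *P* = 0.00401), *CEBPB* by 1.81 (adjusted *P* = 0.00101) and *TRIB3* by 1.52 (adjusted *P* = 0.0196), so that with *NUPR1* 4 of 9 genes rose and none fell, where 26.0% of all genes rose and 26.2% fell. The *TRIB3* call was lost without libraries 30, 31 or 32 (adjusted *P* = 0.0523 to 0.0995). The median of the 9 differences was 0.74. *ASNS* was 5.05, 5.05 and 4.57 without and 5.17, 5.45 and 3.53 with doxycycline, and *CHAC1* 1.26, 1.01 and 3.15 and 2.24, 3.03 and 1.10. Their groups overlapped. *DDIT4* was 5.75, 5.72 and 6.87 without and 4.02, 4.66 and 2.37 with doxycycline and missed the threshold although its groups did not overlap (adjusted *P* = 0.0888).

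With doxycycline, *ASNS* was lower in *REST* KO than in intact cells (log2FC -2.41, SE 0.52, adjusted *P* = 0.00143), as were *CHAC1* (log2FC -1.95, SE 0.72, adjusted *P* = 0.0402) and *ATF4* (log2FC -0.58, SE 0.22, adjusted *P* = 0.0464). These were 3 of 8 genes, where 20.7% of all genes were lower and 17.6% higher. *NOTCH1* was also higher in these *REST* KO libraries, at 9.55 ± 1.05 against 4.86 ± 0.66 in intact and 6.96 ± 0.85 in STING KO cells, and summed non-neuroendocrine markers were 1843 to 2555 against 523 to 760 and 429 to 587 RPKM. Their part in the differences was not tested. The *ASNS* call held without any 1 library, including library 33, which was below its group mean for all 9 genes. The calls for *CHAC1* and *ATF4* were lost in 5 of 6 fits without 1 library, at adjusted *P* values up to 0.173 and 0.213. Only *ASNS* passed without libraries 7, 8, 31 or 33, and without the filter on low values. The difference between the 2 responses to doxycycline passed for *ATF4* alone (log2FC -1.15, SE 0.31, adjusted *P* = 0.0169), where 16.6% of all genes passed. Without libraries 5 or 32, 2 of 8 genes passed. This difference includes the intact response, which was given without a test, so the call is a description. Without doxycycline none of the 8 genes passed in limma between *REST* KO and intact cells (1 at an unadjusted *P* under 0.05), where 15.2% of all genes did, and 1 passed without library 5.

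In H524, 8 of 9 genes rose with N1ICD and none fell, where 17.9% of 13648 genes rose and 14.4% fell. The median of the 9 differences was 2.77 and that of all genes -0.02. *DDIT3* was 4.97, 5.77 and 4.31 in uninduced and 8.55, 8.58 and 9.24 in induced cells (log2FC 3.78, SE 0.47, adjusted *P* = 3.14e-05). *TRIB3* was 1.92, 1.60 and 1.85 and 5.42, 5.44 and 5.73 (log2FC 3.74, SE 0.33, adjusted *P* = 9e-07). These pairs of groups lay far apart compared with their spread. *SESN2* rose by 3.10 (adjusted *P* = 1.22e-05), *CEBPB* by 2.77 (adjusted *P* = 4.19e-05), *CHAC1* by 2.43 (adjusted *P* = 0.0133), *ASNS* by 1.66 (adjusted *P* = 0.00251) and *ATF4* by 1.19 (adjusted *P* = 0.00293). *DDIT4*, at 3.86, 7.57 and 5.90 and 6.74, 6.17 and 6.59, overlapped. All 8 calls held in each of the 6 fits without 1 library.

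With *REST* in the same line none of the 9 genes passed in limma (1, *NUPR1*, at an unadjusted *P* under 0.05), where 2.83% of all genes did. Differences of the 8 genes other than *NUPR1* lay between -0.39 (*DDIT4*) and 0.55 (*TRIB3*). The response to N1ICD exceeded that to *REST* for 7 of 9 genes, where 11.7% of all genes did. Besides *NUPR1* these were *DDIT3* (3.43, adjusted *P* = 0.00247), *TRIB3* (3.19, adjusted *P* = 0.000227), *CEBPB* (3.13, adjusted *P* = 0.000599), *SESN2* (2.68, adjusted *P* = 0.00172), *ASNS* (1.97, adjusted *P* = 0.0137) and *ATF4* (1.27, adjusted *P* = 0.0267). The *ATF4* call was lost in 7 of 12 fits without 1 library (libraries 24 to 27, 34, 37 and 38, adjusted *P* up to 0.0628). Between the 2 induced groups themselves, *NUPR1* (3.48, adjusted *P* = 0.000538), *TRIB3* (2.77, adjusted *P* = 1.46e-05), *SESN2* (1.41, adjusted *P* = 0.00561) and *DDIT3* (1.28, adjusted *P* = 0.0434) were higher with N1ICD, where 19.9% of all genes were. The *DDIT3* call was lost without any of libraries 25, 26, 27, 37 or 38 (adjusted *P* = 0.0648 to 0.169). *ASNS* was 7.14, 6.66 and 7.24 with *REST* and 6.49, 6.48 and 6.44 with N1ICD, and *ATF4* 7.57, 7.67 and 7.73 and 7.79, 7.77 and 7.83, so for these genes the induced groups lay close although their responses differed.

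The uninduced groups differed more. *ASNS* was 6.80, 7.93 and 6.15 in parental, 7.62, 7.19 and 7.15 in uninduced *REST* vector and 4.90, 5.16 and 4.36 in uninduced N1ICD cells, and the N1ICD libraries lay below all the others. Between uninduced N1ICD and parental H524 cells 6 of 9 genes were lower and none higher, where 15.9% of all genes were lower and 10.7% higher. Besides *NUPR1* they were *ASNS* (log2FC -2.15, SE 0.35, adjusted *P* = 0.000982), *DDIT3* (log2FC -1.98, SE 0.47, adjusted *P* = 0.00855), *CEBPB* (log2FC -1.80, SE 0.36, adjusted *P* = 0.00312), *ATF4* (log2FC -1.28, SE 0.26, adjusted *P* = 0.00342) and *SESN2* (log2FC -1.10, SE 0.35, adjusted *P* = 0.0354). The *SESN2* call was lost without libraries 19, 20, 22 or 24 (adjusted *P* = 0.0678 to 0.115), and all 6 were lost when only these 2 groups were fitted. None of the 9 genes passed in limma between uninduced *REST* vector and parental cells (0 at an unadjusted *P* under 0.05), where 0.300% of all genes did. Against parental libraries, a comparison chosen after the data were seen, 5 of 9 genes rose with N1ICD in place of 8, where 23.0% of all genes did, and *ATF4* (-0.09, adjusted *P* = 0.8), *ASNS* (-0.49, adjusted *P* = 0.272) and *CHAC1* (0.75, adjusted *P* = 0.377) no longer did.

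H69 gave a mixed picture. With N1ICD, 5 of 9 genes rose and 3 fell, where 44.1% of 13580 genes rose and 38.3% fell, so the share of the 9 genes past the threshold was near that of all genes. *CEBPB* was 6.97, 5.95 and 6.04 without and 7.99, 7.92 and 7.91 with doxycycline (log2FC 1.62, SE 0.25, adjusted *P* = 0.000309). *TRIB3* rose by 1.41 (adjusted *P* = 0.000311) and *SESN2* by 0.77 (adjusted *P* = 0.000716). *CHAC1* rose by 0.40 (adjusted *P* = 0.0462), a call lost without libraries 49, 51, 52 or 53 (adjusted *P* = 0.0816 to 0.162). The call was also lost without the filter on low values (adjusted *P* = 0.0853), with median scaling (adjusted *P* = 0.061) and with only the compared groups (adjusted *P* = 0.0572). *ASNS* was 6.26, 5.64 and 5.77 without and 4.58, 4.47 and 4.44 with doxycycline and fell (log2FC -1.39, SE 0.14, adjusted *P* = 2.15e-05). The direction was opposite to that in H524. *DDIT4* fell (log2FC -1.29, SE 0.17, adjusted *P* = 0.00011), as did *ATF4* by a small amount (log2FC -0.29, SE 0.09, adjusted *P* = 0.0198), a call lost without libraries 49, 51 or 53 (adjusted *P* = 0.0523 to 0.0654). *DDIT3* overlapped (adjusted *P* = 0.296). Of the pair whose promoters are printed above, *ASNS* fell, while the rise of *CHAC1* was small and its call was not stable. Against parental libraries both were lower, with differences of -0.41 for *CHAC1* and -1.97 for *ASNS*.

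Uninduced N1ICD H69 cells were lower than parental cells for 6 of 9 genes and higher for none, where 13.6% of all genes were lower and 13.8% higher. Besides *NUPR1*, *TRIB3* (-1.27, adjusted *P* = 0.00353), *DDIT4* (-0.86, adjusted *P* = 0.00722), *SESN2* (-0.85, adjusted *P* = 0.00254), *CHAC1* (-0.81, adjusted *P* = 0.00693) and *ASNS* (-0.58, adjusted *P* = 0.019) were lower. The *ASNS* call was lost without libraries 47, 48 or 51 (adjusted *P* = 0.0626 to 0.0636), and without library 49 all 9 genes passed. Against parental libraries, *TRIB3* with N1ICD changed from 1.41 to 0.14 (adjusted *P* = 0.572), *SESN2* from 0.77 to -0.07 (adjusted *P* = 0.628) and *CHAC1* from 0.40 to -0.41 (adjusted *P* = 0.0403).

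**Figure D3:**
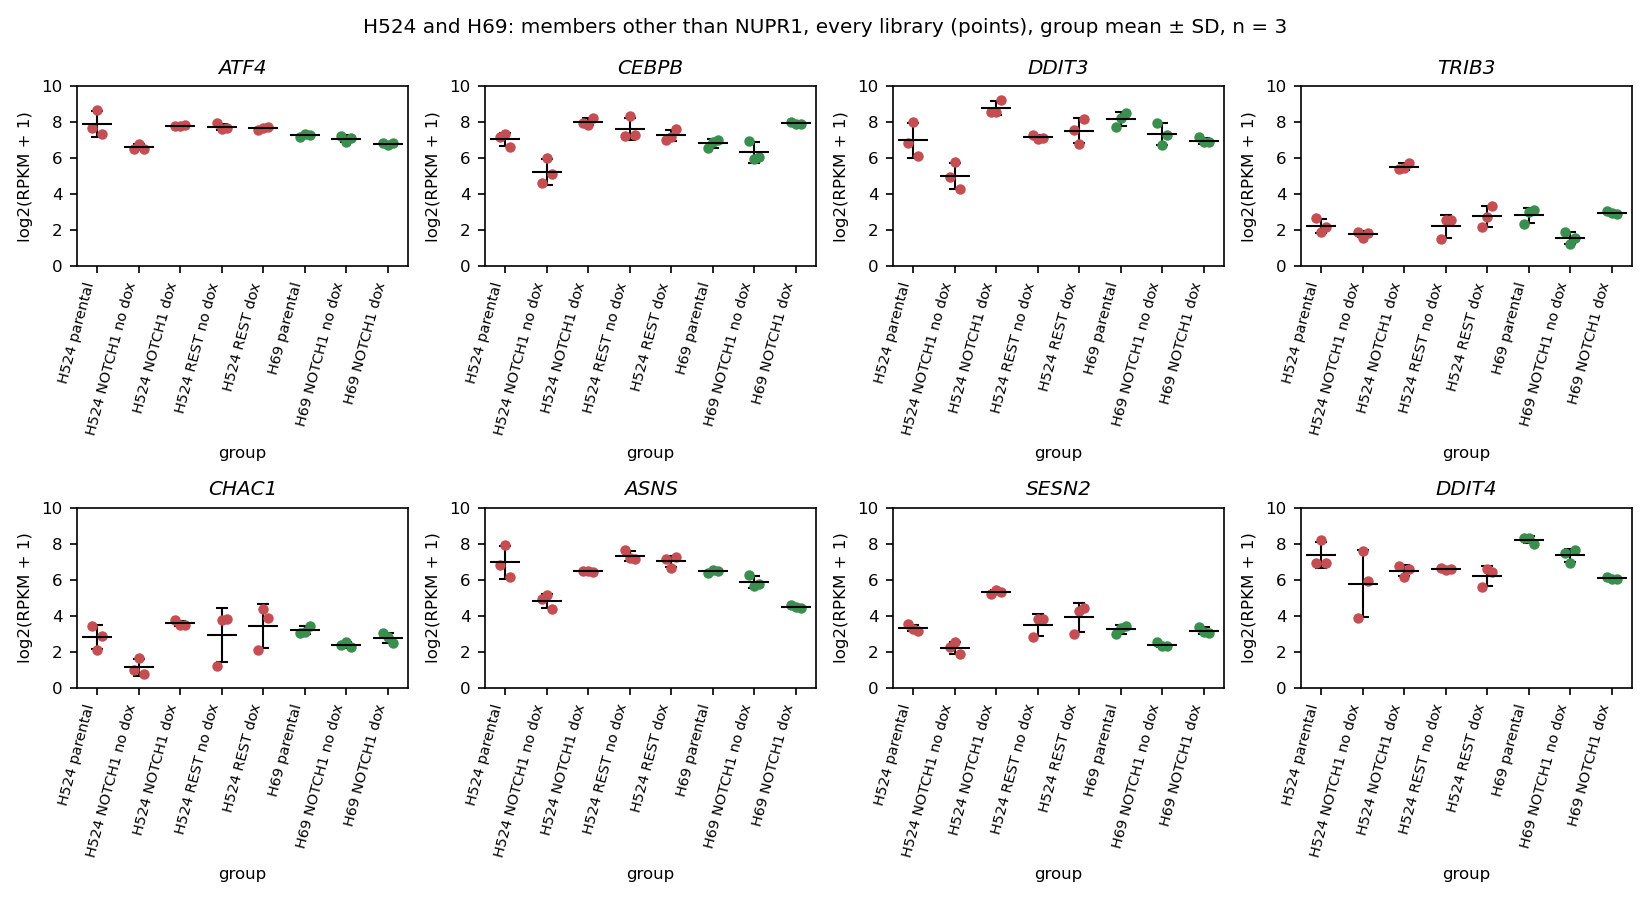
The 8 genes other than *NUPR1* in the 5 H524 and 3 H69 groups, as log2(RPKM + 1), with points for libraries and bars for the mean ± SD, n = 3. Uninduced N1ICD H524 cells are the low group for *ASNS*, between 4.36 and 5.16, and *ASNS* is lowest with doxycycline in H69, between 4.44 and 4.58.

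In COR-L88, *ATF4* and *ASNS* fell with TAS1440. *ATF4* was 6.23, 6.62 and 6.88 with DMSO, 5.68, 5.65 and 5.89 with TAS1440 and 6.26, 6.53 and 6.42 with TAS1440 and GSI, so the TAS1440 libraries lay below both other groups. It fell against DMSO (log2FC -0.83, SE 0.17, adjusted *P* = 0.00109) and was lower with TAS1440 alone than with GSI added (log2FC -0.66, SE 0.17, adjusted *P* = 0.00715). *ASNS* was 4.34, 5.89 and 6.67, 3.69, 3.97 and 4.39 and 4.77, 5.70 and 5.96 in the same groups. It fell against DMSO (log2FC -1.62, SE 0.50, adjusted *P* = 0.0134), a call lost without DMSO library 12 (-1.10, adjusted *P* = 0.071), and was lower than with GSI added (log2FC -1.46, SE 0.50, adjusted *P* = 0.0276), a call lost without libraries 13, 14, 17 or 18 (adjusted *P* = 0.0659 to 0.103). These were 2 of 9 genes against DMSO, where 26.6% of 13134 genes fell and 31.1% rose.

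*DDIT4* was 1.82, 2.29 and 2.63 with TAS1440 and 3.62, 4.03 and 4.40 with GSI added (log2FC -1.77, SE 0.54, adjusted *P* = 0.0156), a call lost without libraries 13 or 18 (adjusted *P* = 0.0565 and 0.0594). With *ATF4* and *ASNS* it made 3 of 9 genes lower without GSI, where 19.0% of all genes were lower and 27.7% higher. None of the 9 genes passed in limma between TAS1440 with GSI and DMSO (0 at an unadjusted *P* under 0.05), where 24.5% of all genes did. DMSO library 10 was below its group mean for all 9 genes, and without it 5 of 9 genes passed between TAS1440 and DMSO, while without library 12 only 1 did. Without libraries 13 or 18, 1 gene passed between TAS1440 alone and with GSI.

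In COR-L88 cells labelled STING KO, *SESN2* was 1.62, 2.92 and 1.28 with DMSO and 3.33, 4.10 and 3.27 with TAS1440 and rose with *NUPR1* (log2FC 1.63, SE 0.57, adjusted *P* = 0.034), so 2 of 9 genes rose where 22.4% of all genes did. The *SESN2* call was lost without libraries 40, 42, 43 or 44 (adjusted *P* = 0.053 to 0.13), and the *NUPR1* call held without any 1 library, including library 44 (adjusted *P* up to 0.0448). With TAS1440, *ATF4* was higher in STING KO than in intact cells (log2FC 0.52, SE 0.17, adjusted *P* = 0.0419), as 1 of 9 genes where 8.34% of all genes were higher, and the call was lost without libraries 13, 14, 43, 44 or 45 (adjusted *P* = 0.0595 to 0.115). With DMSO none of the 9 genes passed in limma (1 at an unadjusted *P* under 0.05), where 5.41% of all genes did, and 1 passed without library 10. None passed in limma for the difference between the 2 responses (2 at an unadjusted *P* under 0.05), where 7.93% of all genes did, but 2 passed without library 10 and 1 without library 41.

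In KP1, *Ddit3* was 2.55, 2.51 and 1.46 with DMSO, 5.38, 4.88 and 3.33 with TAS1440 and 2.26, 2.00 and 3.49 with GSI added. It rose against DMSO (log2FC 2.36, SE 0.57, adjusted *P* = 0.0104) as 1 of 9 genes, where 18.2% of 8260 genes rose, and 2 genes passed without libraries 3, 4 or 6. Against TAS1440 with GSI, *Ddit3* (log2FC 1.95, SE 0.57, adjusted *P* = 0.0278), *Cebpb* (log2FC 2.43, SE 0.63, adjusted *P* = 0.016) and *Atf4* (log2FC 0.87, SE 0.27, adjusted *P* = 0.0354) were higher with TAS1440 alone, 3 of 9 genes where 15.7% of all genes were higher. None of these 3 passed without library 4, 5, 7 or 8 (adjusted *P* = 0.0525 to 0.13). *Cebpb* was 5.54, 5.57 and 3.93, 7.03, 7.36 and 5.56 and 3.92, 3.53 and 5.22 in the 3 groups. In each treatment 1 library stood apart from the other two, with libraries 3 and 6 low and library 9 high for most of the genes. None passed in limma between TAS1440 with GSI and DMSO (0 at an unadjusted *P* under 0.05), where 1.97% of all genes did. *Atf4* was 0.63 higher with TAS1440 than DMSO without passing (adjusted *P* = 0.0988), where *ATF4* fell in COR-L88.

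**Figure D4:**
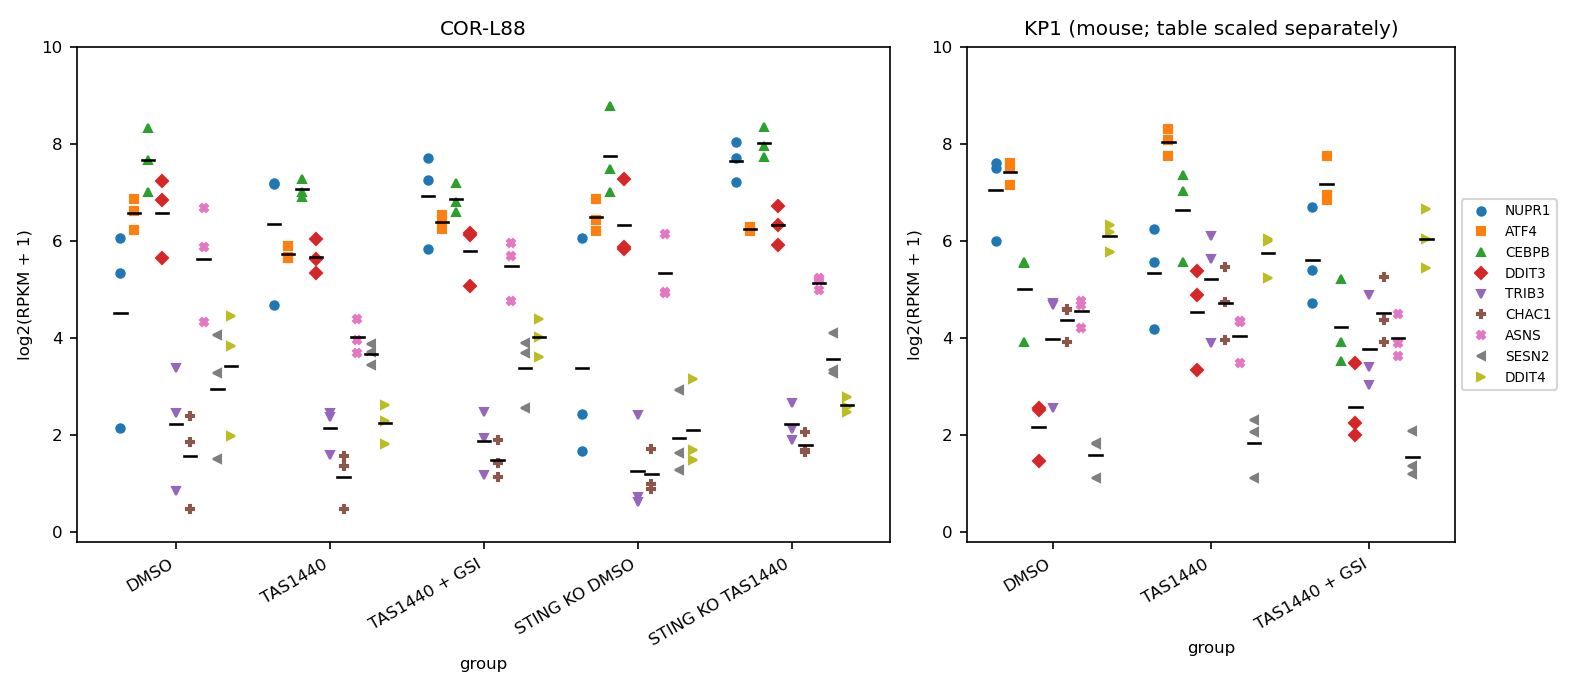
The 9 genes in COR-L88 (left) and KP1 (right) as log2(RPKM + 1), with 1 symbol per gene, points for libraries and black lines for the mean of 3. *ATF4* lies between 5.65 and 5.89 with TAS1440 in COR-L88 and between 6.23 and 6.88 with DMSO.

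Other genes of the response were counted by lists, which were also chosen with earlier results of these data known. With N1ICD in H524, where 17.9% of all genes rose and 14.4% fell, 11 of 13 genes for secreted and other ATF4 targets rose, led by *GDF15*, a stress cytokine (10.14, SE 1.31), *FGF21*, a metabolic hormone (3.31, SE 0.42), and *SQSTM1*, an autophagy receptor (3.10, SE 0.18), and none fell. Of 11 cytosolic tRNA synthetases 9 rose, with *WARS* (2.42), *AARS* (2.05) and *CARS* (1.20) foremost. Of 8 amino acid transporters 5 rose, among them *SLC7A11*, the cystine importer (4.06), *SLC6A9* (2.47) and *SLC38A2* (1.79). All 5 other bZIP factors rose, with *ATF5* (2.87), *ATF3* (2.60) and *XBP1* (1.49) foremost. Of 7 genes for serine, glycine, proline and asparagine synthesis 3 rose, including *PSAT1* (1.36), and *ALDH18A1* fell (-0.61). Of 13 ER chaperone and degradation genes 4 rose, *EDEM1* (1.92), *HERPUD1* (1.85), *SEL1L* (1.74) and *HYOU1* (0.73). Of 7 eIF2α kinase, phosphatase and subunit genes only *PPP1R15A*, the stress-induced phosphatase subunit, rose (2.56, SE 0.92).

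In H82 cells labelled STING KO, where 20.8% of all genes rose with doxycycline, all 8 amino acid transporters, 11 of 13 secreted and other targets and 9 of 13 ER chaperone and degradation genes rose, and none of these lists had a gene that fell. Of the ER list, 5 of 13 genes had a larger response than in intact cells, where 9.26% of all genes differed in either direction, including *SDF2L1* (2.40), *CALR* (2.00) and *MANF* (1.94). With *REST* KO, 6 of 7 synthesis genes were lower than in intact cells under doxycycline, where 20.7% of all genes were lower and 17.6% higher, led by *PSAT1* (-2.86), *PHGDH* (-1.79) and *MTHFD2* (-1.74). In the same comparison 6 of 11 tRNA synthetases and 8 of 13 other targets were lower, with *CTH*, which makes cysteine, foremost (-3.53), and *HMOX1*, the heme-degrading enzyme, was higher (1.90).

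The same lists were counted in H69 and with TAS1440. With N1ICD in H69, where 44.1% of all genes rose and 38.3% fell, 11 of 13 ER genes rose, led by *EDEM1* (1.67), *CALR* (1.57) and *HSPA5* (1.23), while 5 of 13 other targets fell and 2 rose. *GDF15*, which rose in H524, fell in H69 (-3.50, SE 0.24). In uninduced N1ICD cells 10 of 11 tRNA synthetases were lower than in parental H69 and 7 of 11 lower than in parental H524, against 13.6% and 15.9% of all genes, and none was higher. With TAS1440 in COR-L88, where 31.1% of all genes rose and 26.6% fell, 9 of 13 ER genes rose, led by *PDIA4* (1.70), *DNAJC3* (1.18) and *HSPA5* (0.99), *HERPUD1* fell (-1.18), and 4 of 11 tRNA synthetases fell. In KP1, where 18.2% of all genes rose, only 2 of 13 ER genes passed with TAS1440, *Edem1* (1.09) and *Pdia4* (1.02), and 3 of the 11 measured other targets rose, led by *Gdf15* (2.37). *NUPR1L*, a paralog of *NUPR1*, passed the filter only in H69 and COR-L88.

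**Figure D5:**
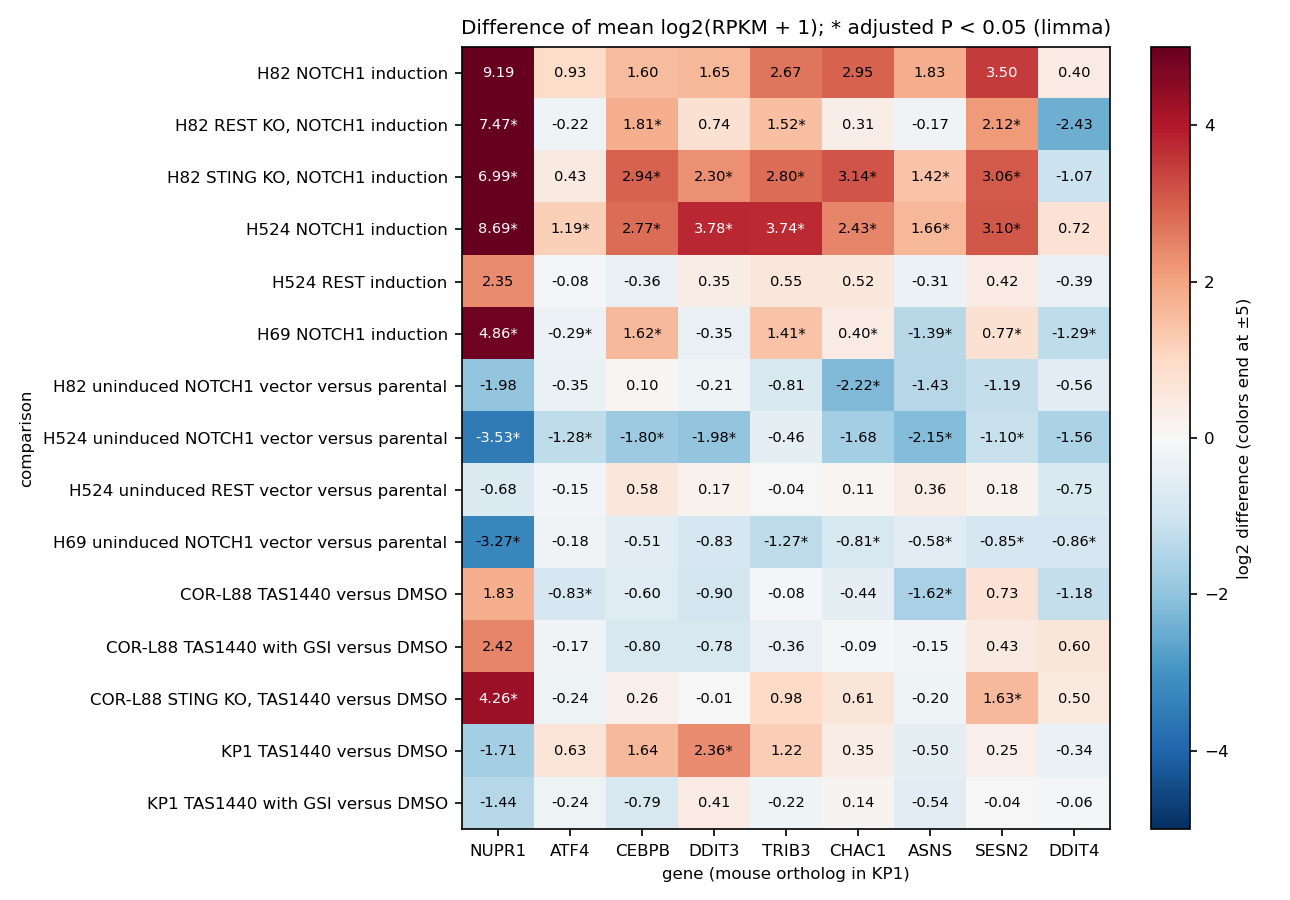
Difference of mean log2(RPKM + 1) for the 9 genes (columns) in 15 comparisons (rows), with asterisks at an adjusted *P* under 0.05 where a test was made. *NUPR1* is higher with N1ICD in all 5 induction rows, *ASNS* is 1.66 higher in H524 and 1.39 lower in H69, and the uninduced rows for N1ICD H524 and H69 are negative for all 9 genes.

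Within groups, the 9 genes varied together. Over deviations of the 60 human libraries from their group means, all 36 pairs of genes had a positive correlation (median r = 0.67, from 0.23 to 0.90). Over the 20 group means 34 of 36 pairs were positive (median r = 0.52, from -0.31 to 0.92). The libraries farthest below their group mean, averaged over the 9 genes, were COR-L88 DMSO library 10 (-1.22), parental H82 library 3 (-1.09) and induced H82 *REST* KO library 33 (-1.03). Each of these 3 lay below its group mean for all 9 genes. The libraries farthest above, parental H82 library 1 (1.71) and COR-L88 STING KO DMSO library 41 (1.06), lay above their group mean for all 9 genes. The coefficients share libraries and normalization and are given without a test. They were not computed for pairs of other genes, so they are not shown to be particular to this set.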

How the data were processed

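Bulk polyA RNA-Seq was made from 60 human and 9 mouse libraries. The deposited values are log2(RPKM + 1): the authors trimmed reads with Cutadapt, aligned them with STAR, counted them with RSEM and scaled the libraries by TMM in edgeR before computing RPKM. The human reads were aligned to hg19, and the submitters' notes also name mm10. Tool versions and gene annotation are not given in the sources used here. Counts and depth are unknown from these values, so voom, the study's test, could not be run, and limma with a variance trend was used in its place. The relative library sizes, estimated from the most frequent ratio between libraries among genes at 0 in many libraries, ranged from 0.698 to 1.52 (human) and from 0.872 to 1.07 (KP1).

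Each line was fitted on its own with all its groups (R 4.3.3, limma 3.58.1), keeping genes that reached 1 on the log2 scale in 3 or more of its libraries: 13903 in H82, 13134 in COR-L88, 13648 in H524, 13580 in H69 and 8260 in KP1. *P* values were adjusted by the Benjamini-Hochberg method, with a threshold of 0.05. The code was tested on simulated data. Genes named outside the set are the called list members with the largest differences and the 5 genes most correlated with *NUPR1*. The 9 genes and all lists were chosen with earlier results of these data known. Alternatives were no filter, a pseudocount of 0.1, quantile or median scaling, only the compared groups, other variance models, a log2 difference of at least 1, leaving out each library and, chosen after seeing the data, parental libraries as reference. GRCh37 positions are from a GENCODE annotation lifted to that build, and GRCh38.p14 promoter windows are from NCBI RefSeq. The 2 builds were not mixed. Reads shared with pseudogenes of *ATF4* (4 by name) and *ASNS* (6 by name) could not be separated. One marker gene is not reported here.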

Additional observations from a re-analysis of the deposited data

Results flagged for a closer look

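In H82 *REST* KO cells, mean *ATF4* was 7.47 without and 7.25 with doxycycline, against 6.90 and 7.83 in intact cells. The *REST* KO response minus the intact response was -1.15 on the log2 scale (adjusted *P* = 0.0169, limma). It kept its call in 12 of 12 fits without 1 library. The intact response within it was given without a test, so the call is a description, and the uninduced groups also differed in mean. In H524, the response to N1ICD exceeded the response to *REST* by tested differences of 6.34 for *NUPR1*, 3.43 for *DDIT3*, 3.19 for *TRIB3*, 3.13 for *CEBPB*, 2.68 for *SESN2*, 1.97 for *ASNS* and 1.27 for *ATF4*. The uninduced N1ICD libraries of H524 that enter these differences lay below the parental ones for *NUPR1*, *ATF4*, *DDIT3*, *ASNS*, *SESN2* and *CEBPB*.

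For 5 pairs, every induced or treated library of one line moved one way from the control mean and every library of the other line the opposite way, and the difference between lines was not tested. *ATF4* and *ASNS* were higher with N1ICD in H82 and H524 and lower in H69, by differences between lines of 1.22 for *ATF4* and 3.22 for *ASNS* in H82 against H69, and 1.48 and 3.05 in H524 against H69. Against the parental libraries, *ATF4* (-0.089) and *ASNS* (-0.49) in induced H524 cells were of the opposite sign, while *ASNS* was 0.39 and *ATF4* 0.59 in induced H82 cells and -1.97 and -0.46 in H69. *ATF4* was lower with TAS1440 in COR-L88 and higher in KP1, by a difference of -1.46 between the lines, whose tables were normalized separately.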

How the results depend on the processing

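The counts below are of the 9 genes, or of the 8 besides *NUPR1* where the H82 N1ICD libraries enter. Only the larger changes of a count are listed, and smaller ones are left out. Against parental libraries the non-overlapping count in induced H82 was 5, and 5 genes passed with N1ICD in H524. There *DDIT4* in H82 was -0.16, *ATF4* and *ASNS* in H524 were -0.089 and -0.49, and *CHAC1* and *SESN2* in H69 were -0.41 and -0.075, all of reversed sign. Without the filter on low values the count was 1 for H82 *REST* KO against intact with doxycycline, 0 for uninduced against parental H82, 1 for TAS1440 in STING KO COR-L88, 0 for STING KO against intact COR-L88 with TAS1440, and 1 for TAS1440 alone against TAS1440 with GSI in KP1. Quantile normalization gave 1 for H82 *REST* KO against intact without doxycycline, 0 for uninduced H82 and 1 for *REST* in H524. With only the compared groups it was 2 for H82 STING KO against intact with doxycycline, 0 for uninduced H82, 1 for *REST* in H524, 0 for uninduced N1ICD H524, 3 for STING KO against intact COR-L88 with TAS1440, 2 for the H82 *REST* KO and 1 for the H82 STING KO difference of responses. A log2 difference of at least 1 gave 5 for H69, 2 for uninduced H69, 1 for TAS1440 in COR-L88 and 0 for STING KO against intact COR-L88 with TAS1440. The pseudocount of 0.1 and the other variance models changed no call, but with the former the H82 difference of *NUPR1* was 11.99 in place of 9.19. Median scaling weakened 3 calls. Among them were *DDIT3* between the induced H524 groups (adjusted *P* = 0.0523, limma) and *CHAC1* with N1ICD in H69 (adjusted *P* = 0.061). Leaving out 1 library gave counts of 1 to 3 for H82 *REST* KO against intact with and 0 to 1 without doxycycline, 0 to 1 for uninduced H82, 1 to 2 for the H82 *REST* KO difference of responses, 5 to 9 for uninduced H69, 1 to 5 for TAS1440 in COR-L88, 1 to 3 for TAS1440 alone against GSI added, 1 to 3 for STING KO COR-L88, 0 to 1 for STING KO against intact with TAS1440 and 0 to 1 with DMSO, 0 to 2 for the COR-L88 difference of responses, and 1 to 2 and 0 to 3 for TAS1440 against DMSO and against GSI added in KP1. *DDIT4* in H82 then ranged from -0.82 to 1.35, *NUPR1* from -0.12 to 0.21 (H82 *REST* KO against intact without doxycycline), -0.74 to 0.10 (H82 STING KO against intact with doxycycline) and -1.14 to 0.24 (COR-L88 TAS1440 alone against GSI added), and *Nupr1* in KP1 (TAS1440 alone against GSI added) ranged from -0.73 to 0.30, with 0.28 without library 9. The cause of these changes was not tested, beyond the fewer libraries or more genes of each fit.

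No paired analysis was possible because the numbers in the titles name single libraries and no 2 compared groups share one. With 3 libraries a group and no read counts, depth could not be weighed, and differences of genes near 0, such as *NUPR1* in uninduced H82 cells, depend on the pseudocount.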
